A study of Homo sapiens with 4 samples.

Results

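The zinc finger genes of the proximal long arm of chromosome 19 were followed in HEK293T cells with and without an intact MORC2 gene. Members were all genes whose symbol begins with ZNF and whose first listed position is on chromosome 19 of T2T-CHM13v2.0, the complete human assembly, with a start above 27000000 and under 54000000. The choice used names and positions and no measured value, and it gave 79 of the 28775 genes counted. RNA was sequenced from 4 samples of HEK293T, a transformed human embryonic kidney line. MORC2 KO replicates 1 and 2 were bulk cell populations, not clones, each made with a different gRNA delivered with Cas9 protein. WT replicates 1 and 2 were wild-type cells. The 2 gRNA sequences overlap in all but their end bases, so they target nearly the same site. No mock treatment or control gRNA is described for the WT cells. The question set by the study was how MORC2 regulates gene expression. Each value below is a count of read pairs on a gene, or a CPM, which is that count scaled to the library size with TMM factors. The sum over genes was between 53970043 and 64312514 read pairs per sample.

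Zinc finger proteins of the C2H2 type bind DNA through tandem fingers, and many of them also carry a KRAB box. The KRAB box recruits TRIM28, which brings in the histone methyltransferase SETDB1, and the trimethylation of histone H3 lysine 9 that follows silences transposons and other targets. In the human genome these genes lie in clusters that arose by tandem duplication, with the largest number on chromosome 19, where the clusters themselves are covered by the same mark. MORC2 is an ATPase that works with the HUSH complex, made of TASOR, MPHOSPH8 and PPHLN1, in silencing of this kind.

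MORC2 itself served as the check of the labels. MORC2 (Entrez identifier 22880, chromosome 22, 31388696 to 31432332, minus strand) held 3064 and 3637 read pairs in KO replicates 1 and 2, against 5131 and 4669 for the WT replicates. Both KO samples were below both WT samples. The RNA in MORC2 KO was 61.1% of that in WT, for a log2 fold change of -0.71 ± 0.06 (SE). The edgeR quasi-likelihood test gave it an adjusted p = 1.37e-04 after Benjamini-Hochberg correction, with 23.3% of its exonic bases shared with a gene on the other strand. In bulk samples, fewer cells with a transcript and less transcript per cell cannot be told apart. Of 10 markers of HEK293 cells, 9 reached 1 CPM in at least 1 sample, and the summed level was between 704.3 and 740.1 CPM in the 4 samples. Of 19 markers of fibroblasts, blood, hepatocytes and carcinoma, 1 reached 1 CPM, COL1A1, and PTPRC, HBB, CD3E and COL1A2 were at or near 0. MORC2 KO replicate 2 stood further from the WT mean than replicate 1, with a median absolute difference of 0.148 against 0.0804 on the log2 scale over all tested genes.

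The members are 65 protein-coding genes, 12 non-coding RNA genes and 2 pseudogenes, with 43 on the plus strand and 36 on the minus strand. A KRAB box was found by a letter pattern in the longest annotated protein of 51 of the 65 protein-coding members, and not in the other 14, although the pattern can miss divergent boxes. Proteins with the pattern had a median of 14 fingers, between 3 and 30, and those without it a median of 11, between 1 and 18. ZNF850 held 30 fingers by the same kind of pattern. Split where the start of the next member lay over 1 Mb away, the members formed 4 positional groups of at least 3 members. Group 1 runs from 37086238 to 37508842 and holds 7 members, among them ZNF302. Group 2 runs from 38727556 to 40581107 with 33 members. Group 3 runs from 42817266 to 42911150 and holds ZNF546, ZNF780B and ZNF780A. Group 4 runs from 46354723 to 47901608 with 28 members, ZNF284 and ZNF234 among them, and the 8 members in smaller runs, singly or in pairs, are called scattered.

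The promoters of the members share sequence that the choice of members did not use. Sequences of 300 bases, from 250 before to 50 after the start of the gene, were taken from RefSeq on GRCh38.p14 for 69 of the 79 members. Among all 32895 words of 8 bases, read on both strands, the word TCTGGGAA, or TTCCCAGA on the other strand, had the largest difference in percentage between the members and all 19554 genes with a promoter. By the ratio of the shares the order is another, since GTAGTCCA was in 27.5% of member promoters and 0.634% of all. It was found after the data had been seen and is a description only. The 4 promoters of the called members are shown because each holds the word, printed in capitals, and those of ZNF575 and ZNF146 are shown as examples that lack it. These 6 were picked with both the word and the fold change known, and ZNF566-AS1, whose log2 fold change of -0.12 was below that of ZNF146, holds the word. They lie at chr19:34677428-34677727 (plus strand) for ZNF302, chr19:40056182-40056481 (minus) for ZNF780B, chr19:44071909-44072208 (plus) for ZNF284, chr19:44141304-44141603 (plus) for ZNF234, chr19:43532938-43533237 (plus) for ZNF575 and chr19:36214856-36215155 (plus) for ZNF146, and read 5′ to 3′ along the gene.
ZNF302: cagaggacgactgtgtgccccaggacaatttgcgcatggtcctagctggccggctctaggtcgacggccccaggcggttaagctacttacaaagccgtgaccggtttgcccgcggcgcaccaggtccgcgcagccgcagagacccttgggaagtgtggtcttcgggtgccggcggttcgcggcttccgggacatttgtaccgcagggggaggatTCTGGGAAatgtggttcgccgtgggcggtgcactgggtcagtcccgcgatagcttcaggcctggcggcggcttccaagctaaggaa
ZNF780B: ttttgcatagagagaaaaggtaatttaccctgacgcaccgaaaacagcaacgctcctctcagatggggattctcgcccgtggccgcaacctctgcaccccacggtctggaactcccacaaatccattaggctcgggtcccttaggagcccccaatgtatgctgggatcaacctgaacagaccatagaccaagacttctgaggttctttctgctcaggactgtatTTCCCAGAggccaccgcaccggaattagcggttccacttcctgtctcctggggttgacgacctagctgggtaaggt
ZNF284: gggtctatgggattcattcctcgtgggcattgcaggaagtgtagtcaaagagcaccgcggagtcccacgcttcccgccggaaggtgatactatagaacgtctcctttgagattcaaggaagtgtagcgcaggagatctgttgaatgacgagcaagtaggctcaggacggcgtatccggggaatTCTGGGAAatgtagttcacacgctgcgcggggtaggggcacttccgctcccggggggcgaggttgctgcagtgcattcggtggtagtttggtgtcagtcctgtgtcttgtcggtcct
ZNF234: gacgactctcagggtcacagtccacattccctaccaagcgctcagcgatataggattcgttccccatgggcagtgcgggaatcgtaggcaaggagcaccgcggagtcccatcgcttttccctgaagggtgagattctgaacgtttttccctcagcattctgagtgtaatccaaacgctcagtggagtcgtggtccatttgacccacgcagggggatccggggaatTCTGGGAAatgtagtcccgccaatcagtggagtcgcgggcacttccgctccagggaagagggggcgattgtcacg
ZNF575: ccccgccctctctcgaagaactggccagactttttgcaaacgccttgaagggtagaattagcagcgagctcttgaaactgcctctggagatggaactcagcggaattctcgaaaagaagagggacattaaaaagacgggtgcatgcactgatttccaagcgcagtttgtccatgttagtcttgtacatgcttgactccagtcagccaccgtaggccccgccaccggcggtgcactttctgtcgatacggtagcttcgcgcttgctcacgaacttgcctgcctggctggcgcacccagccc
ZNF146: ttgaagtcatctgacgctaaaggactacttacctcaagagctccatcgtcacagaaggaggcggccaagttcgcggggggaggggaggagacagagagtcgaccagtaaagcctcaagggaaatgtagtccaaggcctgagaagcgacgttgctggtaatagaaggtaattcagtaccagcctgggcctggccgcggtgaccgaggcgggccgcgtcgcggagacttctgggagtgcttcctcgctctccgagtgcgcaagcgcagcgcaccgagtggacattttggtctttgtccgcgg

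The word stood in 36 of 69 member promoters (52.2%), against 2.86% of all promoters and 2.80% of those of tested genes. It was in 27 of 44 promoters of members with a KRAB pattern, 3 of 13 of those without and 6 of 12 of the non-coding members. ZNF genes elsewhere on chromosome 19 held it in 11 of 175 promoters (6.29%), ZNF genes on other chromosomes in 20 of 246 (8.13%) and genes of the same window without a ZNF symbol in 19 of 443 (4.29%). Counted per promoter, the members held 49 copies in all, with a median of 51 bases before the start. Of these, 40 were centred within 100 bases of it. Neighbours on opposite strands can share promoter bases. The copies of ZNF225 and ZNF225-AS1 are the same sites, as are those of ZNF230 and ZNF230-DT, ZNF222 and ZNF222-DT, ZNF566 and ZNF566-AS1, and ZNF461 and ZNF567. ZNF461 and ZNF567 both have the KRAB pattern, so their site enters the 27 of 44 more than once. Such sites enter the counts and shares given here more than once. In 16 of the 69 member promoters TCTGGGAA was followed within 12 bases by GTAGTCCA, read on either strand, against 21 of all 19554 promoters. Other orders and orientations of the pair were not counted. GTAGTCCA came from the same search for words common in member promoters, so this too is a description only. GGGCGG, the core of the GC box, was in 42.0% of member promoters and 68.4% of those of tested genes, and TATAAA in 0 of 69 against 5.97%.

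**Figure D1:**
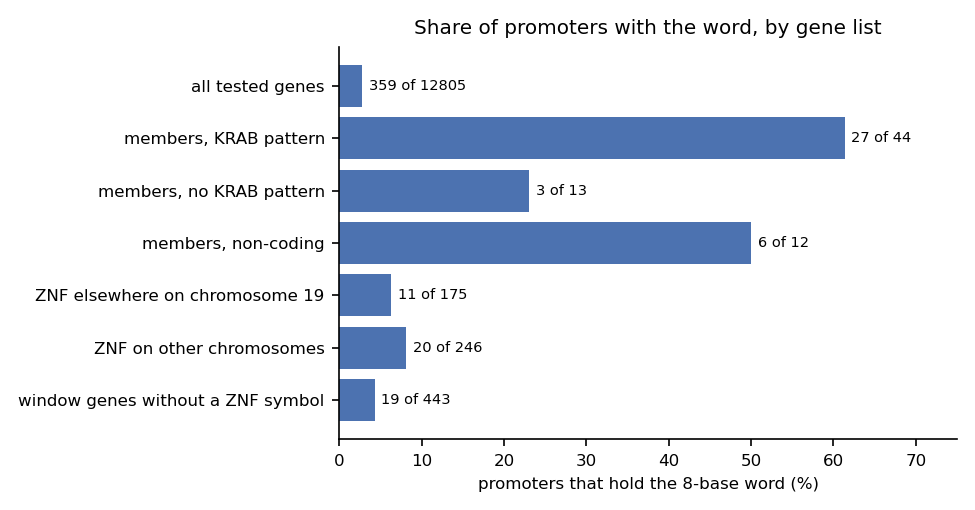
Horizontal bars give the percentage of promoters of each gene list that hold the 8-base word on either strand, with the number of promoters beside each bar. Members with a KRAB pattern stand at 61.4% and all tested genes at 2.80%.

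Most members had slightly higher levels in MORC2 KO, and 4 of them passed the test. ZNF302, ZNF780B, ZNF284 and ZNF234 rose and no member fell, which is 5.41% of the 74 members tested, against 0.588% of all 16675 tested genes called higher and 0.0300% called lower. At an unadjusted p under 0.05, 27 members were higher and 0 lower in edgeR, against 8.14% and 6.17% of all tested genes, and DESeq2 called 5 members higher and 0 lower, against 0.69% and 0.102% of all. The log2 fold change was positive in 67 of the 74, against 51.5% of all tested genes, with a median of 0.18 against 0.00537 in all tested genes. Both KO samples lay above both WT samples in 50 members (67.6%, against 24.1% of all tested genes) and below them in 4, ZNF146, ZNF575, ZNF576 and ZNF473, against 23.4%. With 2 samples against 2, an exact permutation test of a single gene cannot go below 0.33, so the calls rest on the spread shared across genes.

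**Figure D2:**
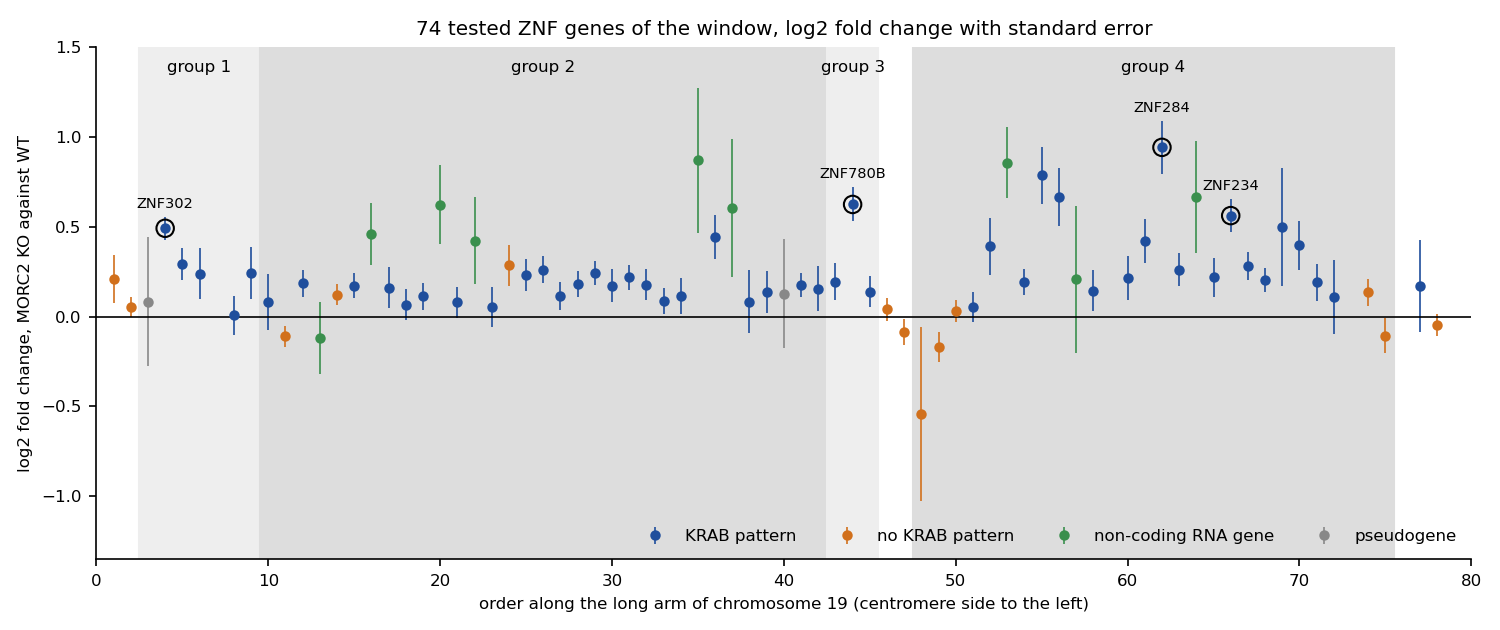
Each point is the log2 fold change of a tested member, in order along the chromosome, with its standard error, and the shaded bands are the 4 positional groups. Circled points are the 4 called members, and the values run from -0.54 in ZNF575 to 0.94 in ZNF284.

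ZNF284 (Entrez identifier 342909), a KRAB gene with 11 fingers, had the largest change. KO replicates 1 and 2 held 256 and 312 of its read pairs and the WT replicates 133 and 131. Scaled, these were 4.50 ± 0.312 CPM (SD, n = 2) against 2.35 ± 0.160 (SD, n = 2). The 2 KO samples were well above the 2 WT samples and close to each other. It rose by 0.94 ± 0.15 on the log2 scale (SE), with an edgeR adjusted p = 0.00967. It lies on chromosome 19 from 46895067 to 46912496 on the plus strand with 5 exon blocks.

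ZNF234 (Entrez identifier 10780), with 18 fingers, lies in the same group from 46964407 to 46983173 on the plus strand. KO replicates 1 and 2 held 1008 and 1292 read pairs, and the WT replicates 753 and 640. KO replicate 2 was the highest of the 4 samples, and the genotypes did not overlap. This was 18.2 ± 1.91 CPM (SD, n = 2) against 12.3 ± 0.445 (SD, n = 2), a rise of 0.56 ± 0.09 on the log2 scale (SE), with an edgeR adjusted p = 0.0115.

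ZNF302 (Entrez identifier 55900) had the smallest p of all members and lies in group 1 from 37222265 to 37230967 on the plus strand. Its read pairs numbered 2866 and 3417 in KO replicates 1 and 2, against 2142 and 1858 for WT, and the genotypes were again apart. The level was 49.8 ± 2.68 CPM (SD, n = 2) against 35.5 ± 0.770 (SD, n = 2), a rise of 0.49 ± 0.06 on the log2 scale (SE), with an edgeR adjusted p = 0.00248. Of the 65-base windows in its transcript, 7.05% were found in transcripts of another locus, chiefly ZNF181, so a share of its reads could belong to that gene, which had a log2 fold change of 0.29.

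ZNF780B (Entrez identifier 163131), with 21 fingers, lies in group 3 from 42848466 to 42876439 on the minus strand. The KO replicates held 1065 and 1377 read pairs of it and the WT replicates 787 and 631. The lowest KO sample was above the highest WT sample after scaling, at 17.8 against 13.2 CPM. ZNF780B rose by 0.62 ± 0.09 on the log2 scale (SE), with an edgeR adjusted p = 0.00789. Its neighbour and relative ZNF780A held 1481 and 1849 read pairs in the KO replicates and 1526 and 1184 for WT, so that its samples overlapped (log2 fold change 0.14, adjusted p = 0.467 in edgeR). The pair shared 1.30% of the 65-base windows of ZNF780B.

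With MORC2 KO replicate 2 left out the 4 log2 fold changes were 0.87, 0.45, 0.44 and 0.51 for ZNF284, ZNF234, ZNF302 and ZNF780B, and with any 1 sample left out each of the 4 kept an adjusted p under 0.05 in edgeR. Without MORC2 KO replicate 1 the number of members called was 21 higher and 1 lower, and 9.58% and 11.6% of all genes were called, so that the number of calls depends on which KO sample is kept. Without WT replicate 1 it was 7 higher, against 0.882% of all. Without the filter on low counts 11 of the 79 members were called higher, against 2.04% of the genes then tested, and with the replicate number as a block, a number that is all the same-numbered samples share, 7 were, against 1.42% of all, or 1.92% when offsets for GC content and length were added to the block.

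Of the 12 members with the smallest p, the 8 that were not called had log2 fold changes between 0.24 and 0.86. In each of these 8 both KO samples were above both WT samples, against 24.1% of all tested genes. The 12 were chosen by p in the same samples, so this separation was largely set by the choice. ZNF221 (Entrez identifier 7638) held 278 and 285 read pairs in the KO replicates and 175 and 119 for WT. Its log2 fold change was 0.79 ± 0.16 (SE), with an edgeR adjusted p = 0.0523. Its call depended on the setting. DESeq2 called it (adjusted p = 0.0326), while edgeR did not with abundance offsets (log2 fold change 0.71, adjusted p = 0.0890) or without WT replicate 2 (log2 fold change 0.61, adjusted p = 0.35). ZNF45-AS1, a non-coding RNA gene antisense to ZNF45, stood at 2.43 and 3.27 CPM in the KO replicates against 1.70 and 1.45 CPM for WT (log2 fold change 0.86, adjusted p = 0.1003 in edgeR). ZNF155 held 280 and 429 read pairs against 218 and 180 (log2 fold change 0.67, adjusted p = 0.114 in edgeR), with KO replicate 2 well above replicate 1. Of its exonic bases, 32.1% overlap ZNF230-DT, and read pairs that could belong to either gene were left out of the counting. The next 5 members, ZNF226, ZNF585B, ZNF793, ZNF223 and ZNF568, had log2 fold changes of 0.28, 0.24, 0.44, 0.42 and 0.26. ZNF585B shares 16.9% of its 65-base windows, chiefly with its neighbour ZNF585A, which had a log2 fold change of 0.18, and reads from the pair cannot be fully told apart.

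**Figure D3:**
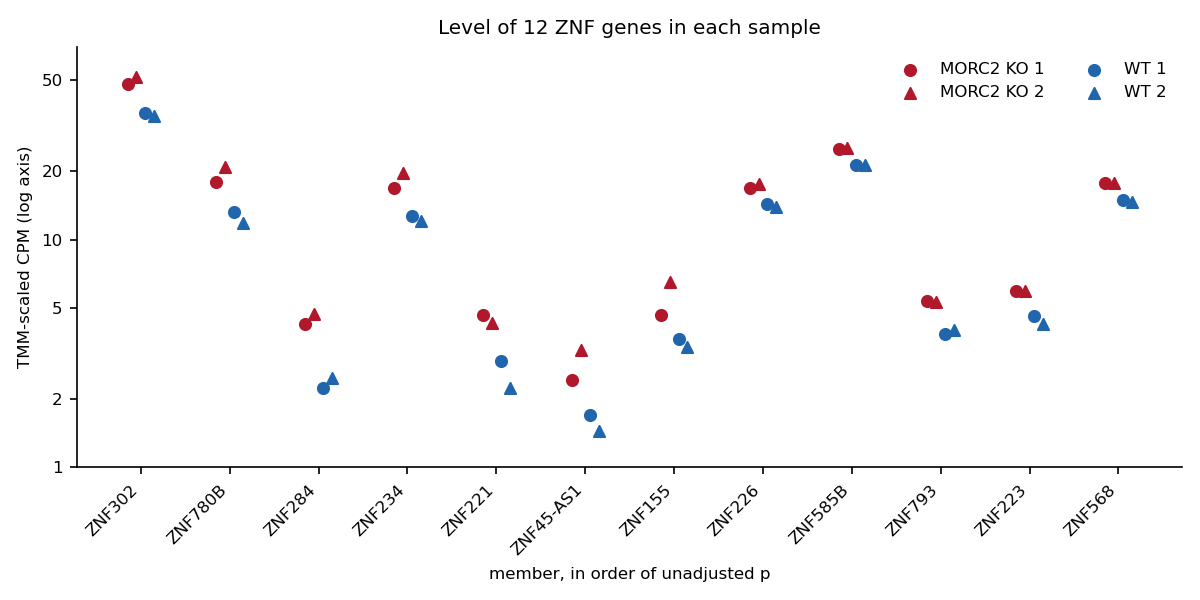
Points give the TMM-scaled CPM on a log axis of the 12 members with the smallest p in each sample, with red for MORC2 KO and blue for WT. In all 12 the red points lie above the blue points, from 4.28 and 4.72 against 2.24 and 2.46 CPM in ZNF284 to 47.9 and 51.7 against 36.0 and 34.9 in ZNF302. The 12 were chosen by p in the same samples, so the separation was largely set by the choice.

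The lowest log2 fold changes were in members without a KRAB pattern and in a non-coding gene, and none passed the test. ZNF575 held 7 and 16 read pairs in the KO replicates and 16 and 14 for WT, for a log2 fold change of -0.54 ± 0.49 (SE), and at this depth a change of that size was not detectable. ZNF576 was at -0.17, ZNF566-AS1 at -0.12 and ZNF146 at -0.11. ZNF146, a gene whose protein is made almost wholly of zinc fingers, held 10934 and 11810 read pairs in the KO replicates and 11666 and 10345 for WT, which after scaling was 180.8 ± 2.91 CPM (SD, n = 2) against 195.2 ± 1.19 (SD, n = 2), with adjusted p = 0.392 in edgeR.

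The members with and without a KRAB pattern differed in how many were higher in MORC2 KO, which is given here as a description with no test. Of the 50 tested members with a KRAB pattern, 50 had a positive log2 fold change, from 0.00656 in ZNF30 to 0.94 in ZNF284, with a median of 0.19. Both KO samples were above both WT samples in 38 of them (76.0%, against 24.1% of all tested genes). Of the 13 tested protein-coding members without the pattern, 4 had both KO samples above (30.8%) and 4 had both below. The shares over all tested genes were near these, at 24.1% and 23.4%. Of the 13, 7 were positive and the median was 0.03, with values from -0.54 in ZNF575 to 0.28 in ZNF345. The sign of that median was not stable, at -0.0273 without MORC2 KO replicate 2, -0.00589 without WT replicate 1 and -0.00634 without the filter on low counts. All 4 called members carry the pattern. The pattern can miss divergent boxes, so members counted as without it may still carry a KRAB box. The split is therefore by the pattern and not by a curated annotation of the domain. The tested members without it were also more abundant, at a median log2 CPM of 4.50 against 3.34, and have transcripts of higher GC content, with medians of 51.6% against 40.5%, and the part of either in the difference was not tested. Among the 40 tested KRAB members with under 5% of exonic overlap and of shared windows, the median was 0.19 and 40 were positive. Of 9 tested non-coding members 8 were positive, with a median of 0.61 and 0 called, at a median log2 CPM of 0.0365, and several overlap the exons of a member on the other strand, as ZNF225-AS1 does over 57.7% of its exonic bases.

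**Figure D4:**
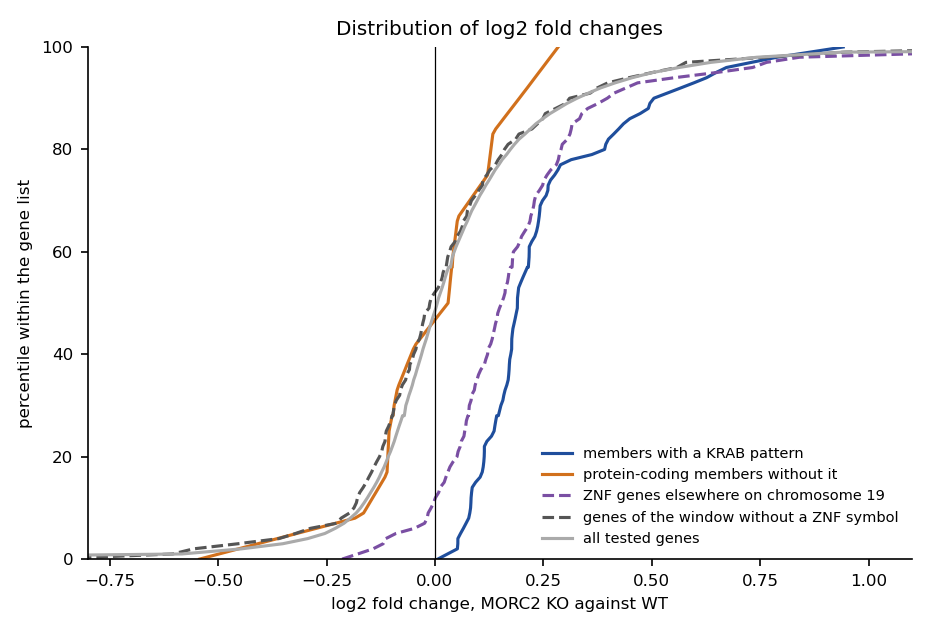
Curves give, for each gene list, the log2 fold change (horizontal) reached at each percentile of the list (vertical). The curve of the KRAB members lies to the right of 0 throughout, with a median of 0.19, while those of the members without the pattern and of the other genes of the window cross the middle near 0, at 0.03 and -0.01.

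The 2 KO samples, made with overlapping gRNAs, both had members mostly above the WT mean. Both were compared with the same WT mean, so part of this likeness is built in. Relative to the WT mean, the median difference over the 74 members was 0.16 in MORC2 KO replicate 1 and 0.19 in replicate 2 on the log2 CPM scale, with 60 and 68 members above the mean. Among the KRAB members these were 0.19 and 0.21, with 46 and 50 of 50 above. WT replicates 1 and 2 lay 0.01 above and below their mean, which with 2 samples is symmetric by construction, and differed from each other by a median of 0.03. Among the KRAB members WT replicate 1 was above WT replicate 2 by a median of 0.05. It was higher in 36 of the 50, against 48.8% of all tested genes, so these genes also moved together between the WT samples. The summed level of the tested members was 1177 and 1192 CPM in MORC2 KO and 1099 and 1082 CPM in WT, and the members took between 0.107% and 0.122% of all counts of a sample. Single members differed more between the KO samples, as did ZNF233, with 39 and 79 read pairs in the KO replicates and 35 and 39 for WT (log2 fold change 0.50, adjusted p = 0.495 in edgeR).

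**Figure D5:**
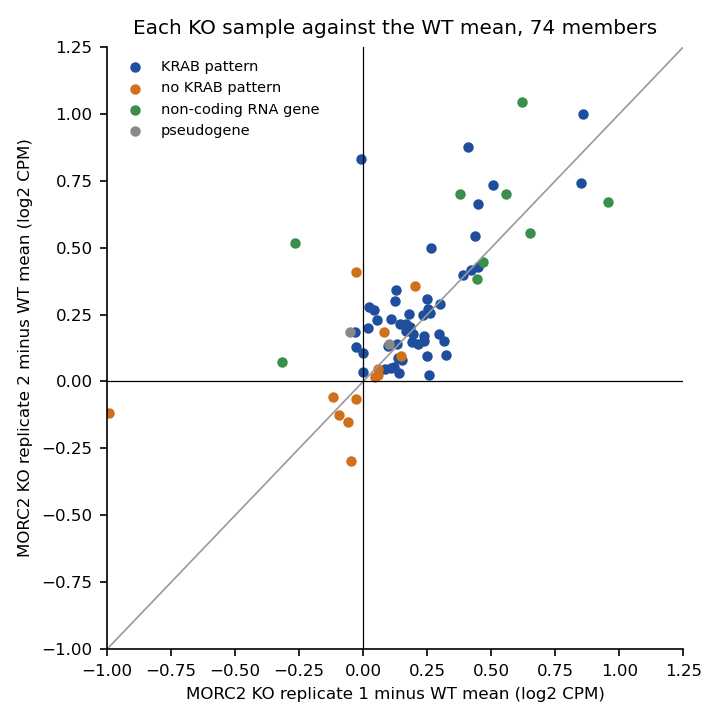
Each point is a tested member, with its log2 CPM in MORC2 KO replicate 1 less the WT mean on the horizontal axis and the same for replicate 2 on the vertical axis, and the grey line marks equality. Of the 74 points, 60 lie right of 0 and 68 above 0. Both axes use the same WT mean, so the 2 values of a point are not independent.

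The level of the members was low. Per kb of exon, the scale on which genes can be compared, the mean level over the 4 samples had a median of 1.83 CPM per kb over the 79 members. The highest were ZNF146 with 56.2, ZNF428 with 40.3, ZNF302 with 13.2, ZNF507 with 10.7, ZNF574 with 8.80 and ZNF260 with 8.23 CPM per kb. Of these 6, ZNF302 alone has the KRAB pattern and alone was called, while ZNF428, ZNF507, ZNF574 and ZNF260 had log2 fold changes of 0.03, 0.05, 0.04 and 0.12. The KRAB members had a median of 2.16 CPM per kb and the protein-coding members without the pattern 7.04. The 5 members that were not tested, ZNF30-AS1, ZNF222-DT, ZNF229, ZNF541 and ZNF473CR, had at most 18 counts in any sample, and none of them was called in the fit without the filter.

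Log2 fold changes of all genes drift with abundance in these libraries, and this touches the members. Below 0 log2 CPM all tested genes had a median of 0.14 and the 9 members 0.21. In the bin of 0 to 2 all tested genes had a median of 0.09 and the 13 members 0.39. In the bin of 2 to 4 these were 0.05 and 0.19 (28 members), and in the bin of 4 to 6 they were -0.000659 and 0.16 (22 members). Above 6 they were -0.05 and -0.03 (2 members), so that in the lowest and the highest bin the members lay closer to all genes than in the others. With the trend on abundance removed from each library, the median of the members was 0.15 with 62 of 74 positive, and that of the KRAB members 0.16 with 47 of 50 positive. Across the 74 members the Spearman correlation of the log2 fold change with mean log2 CPM was -0.342. Those with GC content (72 members), exon length and number of fingers (64 members) were -0.0832, -0.0492 and 0.0946. The Pearson correlations, in the same order from mean log2 CPM, were -0.3, -0.271, 0.00784 and 0.109, so the value for GC content depends on the measure. These correlations are across genes of the same 4 libraries, which are not independent.

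Along the chromosome, the median log2 fold change was 0.24 in group 1 (6 tested members, 6 positive), 0.17 in group 2 (33 members, 31 positive), 0.19 in group 3 (3 members, 3 positive) and 0.22 in group 4 (26 members, 23 positive). The 6 tested scattered members, of which 1 has the KRAB pattern, had a median of 0.05. Group 4 was uneven. Its proximal end, with ZNF575, ZNF576 and ZNF428, was between -0.54 and 0.03, the run from ZNF45-AS1 to ZNF235 held ZNF221, ZNF155, ZNF284 and ZNF234, and ZNF296 at the distal end was at -0.11. Genes without a ZNF symbol that lie inside the spans had medians of 0.59 in group 1 (4 tested), 0.30 in group 2 (7 tested) and -0.05 in group 4 (20 tested, and 0.03 without MORC2 KO replicate 1), with 0 called in each of these. The tested ones of groups 1 and 2 are non-coding genes or pseudogenes except SCGB2B2, ZFP14 and ZFP30, which were chosen for mention after their values were seen. ZFP14 and ZFP30, both in group 2, are zinc finger genes under another symbol and were not searched for the KRAB pattern. Their log2 fold changes were -0.04 (adjusted p = 0.894 in edgeR) and 0.14 (adjusted p = 0.369 in edgeR).

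Medians with and without the promoter word were close among all members, KRAB members and ZNF genes elsewhere on chromosome 19, and further apart in some other lists. Members with the word had a median log2 fold change of 0.19 (33 tested) and those without it 0.18 (31 tested), and among KRAB members the medians were 0.19 (26) and 0.18 (17). Among the other members they were 0.21 (7, of which 6 positive) and 0.05 (14, of which 9 positive), and among ZNF genes on other chromosomes 0.13 (18) and 0.07 (203). Among ZNF genes elsewhere on chromosome 19 they were 0.17 (9) and 0.15 (125). With abundance offsets the medians were 0.13 and 0.06 among the other members, and 0.09 and 0.06 on other chromosomes. Elsewhere on chromosome 19 the order then turned, with 0.10 and 0.11. The list of other members mixes protein-coding and non-coding genes, and the part of this mix in the difference was not tested. The lists with and without the word were not tested against each other. In the 299 tested genes without a ZNF symbol that hold the word the median was -0.02, against -0.00213 in 12087 that lack it.

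ZNF genes in other places also had positive medians. The 154 tested ZNF genes elsewhere on chromosome 19 had a median of 0.15, with 135 positive and 3 called higher, and the 274 on other chromosomes had 0.08, with 207 positive and 7 called higher, and 0 were called lower in either. Split by the KRAB pattern, the medians were 0.17 (113 with) and 0.07 (27 without) elsewhere on chromosome 19, and 0.13 (78) and 0.05 (158) on other chromosomes. The 383 tested genes of the window without a ZNF symbol had a median of -0.01, with 184 positive, and 0 were called in edgeR, with 24 higher and 31 lower at an unadjusted p under 0.05. Both KO samples were above both WT samples in 19.3% of them. The differences between these lists were not tested, since their genes are not replicates.

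Of 30 genes of the pathway through which KRAB zinc finger proteins silence their targets, 1 was called higher and 0 lower (3 higher and 2 lower at an unadjusted p under 0.05 in edgeR), with a median log2 fold change of -0.02 and 12 of the 30 positive. With abundance offsets the sign turned, to a median of 0.02 with 19 positive. The called gene was TASOR, a scaffold subunit of HUSH, with 12632 and 15590 read pairs in the KO replicates against 7942 and 6728 for WT. It rose by 0.78 ± 0.07 on the log2 scale (SE), with an edgeR adjusted p = 1.37e-04. TRIM28, the corepressor bound by KRAB boxes, was at -0.09 (adjusted p = 0.565 in edgeR), SETDB1 at 0.14 (0.307), MPHOSPH8 at -0.09 (0.477) and PPHLN1 at -0.05 (0.718). After scaling, TRIM28 was slightly lower in both KO samples than in both WT samples, without passing the test, and with abundance offsets its log2 fold change turned to 0.00572. CHD3 and CHD4, remodellers that work with TRIM28 in the NuRD complex, were at -0.16 and -0.17, with adjusted p = 0.268 and 0.271 in edgeR, and are the members of the list below the unadjusted threshold in the lower direction.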

How the data were processed

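Polyadenylated RNA was sequenced as 65 bp read pairs from 2 MORC2 KO and 2 WT samples of HEK293T. The authors aligned the reads to T2T-CHM13v2.0 with Subread 2.0.6 and deposited counts of read pairs per RefSeq gene from featureCounts 2.0.6, without normalization. Per the file headers, reads that map to several places were counted, strand was ignored and read pairs over more than 1 gene were left out, so that near-identical or overlapping genes are less certain. 0 columns of other samples were present. Symbols came from a RefSeq table of GRCh38.p14, with 28763 of 28775 identifiers matched. Positions, exon blocks and lengths are those of the deposited table.

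The whole table was filtered with filterByExpr (16675 genes left), scaled with TMM and compared with edgeR 4.0.16 in R 4.3.3 (quasi-likelihood F-test, older form, genotype alone, Benjamini-Hochberg adjustment at 0.05 over all tested genes). The SE of a log2 fold change was taken as its size over the root of its F value. The labels do not say whether replicates were separate cultures, although the methods describe separately made populations, so p-values measure the spread between these samples. The chi-square per degree of freedom between replicates was 16.8 in MORC2 KO and 6.56 in WT, so replicates differed beyond counting error, which does not show that they were separate cultures. The alternatives were DESeq2 1.42.0, the newer edgeR form, RLE scaling, other filters, loess offsets (span 0.3), the replicate block and leaving out each sample. The fit was tested on simulated data with 200 changed genes.

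Exon overlap is on the deposited positions. KRAB boxes and fingers were found by letter patterns in proteins translated from GENCODE 29, and shared windows are 65-base stretches of a member's GENCODE 29 transcripts also found in transcripts of another locus. The genes named are MORC2, ZNF284, ZNF234, every called member, the 12 members with the smallest p, the 4 with the largest and 4 with the lowest log2 fold change, the 6 with the highest CPM per kb, TRIM28, SETDB1, TASOR, MPHOSPH8, PPHLN1 and called partner genes, and any other gene was picked with its values in view. The members and lists were chosen with earlier results of these data known.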

Additional observations from a re-analysis of the deposited data

How the results depend on the processing

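ZNF284, ZNF234, ZNF302 and ZNF780B stayed called under each of the alternatives run. With no low-count filter 11 members were higher. Same-numbered samples share only a number, with a correlation of their deviations of -0.124, and with the replicate block 7 members were higher, also with GC content and length offsets (7). With the numbers crossed between the genotypes, a fit added after seeing the data, 20 members were higher and 0 lower (903 and 809 of all genes), and 2 silencing partners were higher and 2 lower. Leaving out 1 sample, where the lone sample is assumed to vary like the other genotype with 1 residual degree of freedom, gave between 4 and 21 members higher and between 0 and 1 lower, and between 1 and 6 partners higher and 0 and 3 lower. The highest values came without MORC2 KO replicate 1, and without WT replicate 1 there were 7 members higher.

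The median log2 fold change of the members was 0.15 with abundance offsets and 0.16 with the block and GC content and length offsets, and between 0.16 and 0.23 with a sample left out. That of the KRAB members was 0.16 with abundance offsets and between 0.19 and 0.24 with a sample left out. That of the members without the pattern was -0.00634 without the filter, 0.0105 with GC content and length offsets and 0.0104 with the block as well, and between -0.0273 and 0.0317 with a sample left out. For the scattered members these were -0.0014, 0.0167 and 0.0167, and between 0.0154 and 0.0524. With abundance offsets, group 1 was at 0.17, group 2 at 0.13 and ZNF genes elsewhere on chromosome 19 at 0.11. Group 2 was at 0.14 with GC content and length offsets, with or without the block. With a sample left out, group 1 was between 0.18 and 0.29, group 2 between 0.14 and 0.19, group 4 between 0.20 and 0.29, and the ZNF genes elsewhere on chromosome 19 between 0.13 and 0.18.

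ZNF566-AS1 changed sign with a sample left out, between -0.34 and 0.0609, as did ZNF428, between -0.00589 and 0.0669, and TRIM28 with abundance offsets (0.00572), none of them called. The causes were not tested. Depth limits members such as ZNF575 with at most 16 counts in a sample.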
